A study of Mus musculus with 18 samples.

Results

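The cardiomyocyte (CM) fraction and the non-cardiomyocyte (NCM) fraction of the mouse heart at P28, postnatal day 28, were compared across genes. The fractions were the 3 chips whose deposited files were named CM (replicates 1, 3 and 5) and the 3 named NCM (replicates 2, 4 and 6), which are 6 of the 18 samples of the series. A chip is an ICELL8 array of nanowells in which single dispensed cells are lysed and their polyA RNA is tagged with a unique molecular identifier (UMI) per molecule. Wells that the well reports did not call controls and in which at least 500 genes were detected were kept, which gave 2514 CM wells and 4003 NCM wells, or 6517 of 7964 wells. The UMIs of the kept wells were summed per chip, so that each chip was 1 replicate and wells were never treated as replicates.

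All 6 chips came from hearts of the strain Myh6/Esr1-Tomato, labelled wild type with no knockdown. In this strain the Myh6 promoter, which is active in cardiomyocytes, drives a tamoxifen-dependent Cre that switches on the tdTomato reporter. Tamoxifen was given to the nursing mothers in the days after birth, so both fractions share the transgenes and the drug. The hearts were digested by Langendorff perfusion, and cells that sank at low centrifugal speed were taken as CMs and the remainder as NCMs. The sample labels state no fraction, so it rests on the file names; the well reports repeat it for replicates 1, 2, 5 and 6 and do not name it for replicates 3 and 4. The well reports type the wells of replicates 1, 2, 5 and 6 as M1 or M2, read here as 2 animals, and give no such name for replicates 3 and 4. P-values measure the spread between chips, which may be technical.

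Cardiomyocytes fill most of the volume of the ventricle but share it with endothelial cells, fibroblasts, pericytes and resident macrophages. They contract through sarcomeres, in which myosin thick filaments slide along actin thin filaments anchored at Z-discs, and each beat is set off by calcium released from the sarcoplasmic reticulum. The work is paid for almost entirely by mitochondrial respiration of fatty acids, so the cells are packed with mitochondria, while the collagen matrix, immune surveillance and the vessels are kept by the other cell types.

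Levels are given in CPM, the UMIs of a gene scaled to the non-mitochondrial UMIs of its chip with TMM factors, in the order replicates 1, 3 and 5 for CM and 2, 4 and 6 for NCM. Changes are log2 of CM over NCM with their standard error (SE), and a gene was called higher or lower in CM where edgeR's quasi-likelihood test gave an adjusted p under 0.05. The kept wells held 10828917 to 106163564 UMIs per chip, the highest total in CM replicate 3. A chip's median well held 10938 to 125014 UMIs in CM and 5657.5 to 10177 in NCM.

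The RNA of the CM chips was largely mitochondrial. Mitochondrial genes held 69.65%, 65.8% and 49.93% of the UMIs of the CM chips and 24.65%, 19.65% and 21.82% of those of the NCM chips. The groups did not overlap, and the exact two-sided permutation p was 0.1, the smallest that 3 chips against 3 can give. The tdTomato reporter, written TDtomato in the files, had 1.07, 1.98 and 5.22 UMIs per 10000 non-mitochondrial UMIs in the CM chips and 0.630, 0.613 and 0.687 in the NCM chips (exact permutation p = 0.1). A TDtomato UMI was present in 33.4%, 91.4% and 76.4% of CM wells and in 17.5%, 21.6% and 14.2% of NCM wells. CM replicate 1 had the lowest reporter share of the CM chips. In the NCM chips the wells with a reporter UMI had no higher median share of CM marker UMIs (0.137%, 0.0718% and 0.147%) than the wells without one (0.176%, 0.0825% and 0.252%), and were deeper, with a median of 8885, 13326 and 6596 against 4804, 6702 and 3510 non-mitochondrial UMIs.

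The summed marker lists separated the fractions for CM and mural markers, which were higher in CM. Those of fibroblasts, macrophages, granulocytes and endocardial, T, B and NK cells were lower in CM without overlap. The lists of endothelial, mesothelial, Schwann, fat, red and atrial CM cells did not separate the fractions. The 8 CM markers summed to 43525, 128790 and 94696 CPM in the CM chips and 2039.9, 1129.8 and 2590.2 CPM in the NCM chips. Every CM chip lay above every NCM chip, and CM replicate 1 held the least of the CM chips. The 8 fibroblast markers summed to 2409, 937 and 1084 CPM in the CM chips and 7339.6, 7544 and 5272 CPM in the NCM chips, with CM replicate 1 highest among the CM chips. Macrophage markers summed to 424, 257 and 244 CPM in the CM chips and 3019.5, 3030.1 and 3395 CPM in the NCM chips, again with no overlap. The endothelial markers summed to 2928, 1673 and 1206 CPM in the CM chips and 2702, 1736 and 1508 CPM in the NCM chips, and the groups overlapped. In sums over all cells of a chip, fewer cells of a type and less RNA per cell cannot be told apart.

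**Figure D1:**
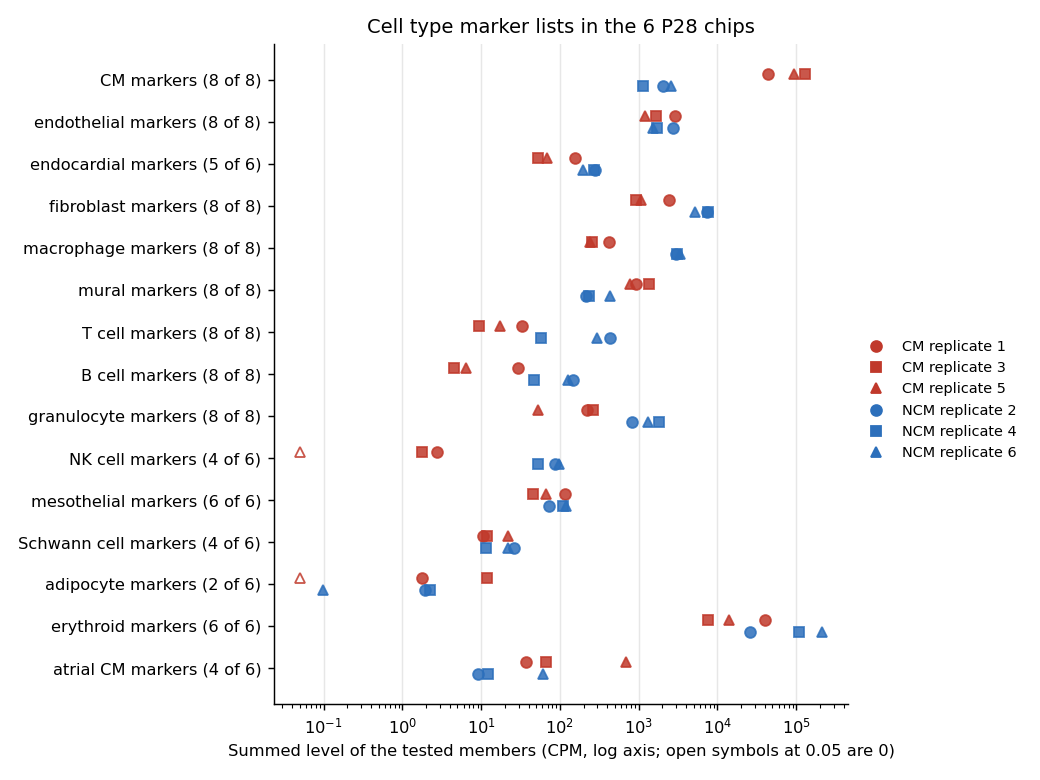
Summed level of each cell type marker list in each of the 6 P28 chips, in CPM on a log axis, with CM chips in red and NCM chips in blue; the number of members tested and listed stands beside each name. The 3 CM chips lie above the 3 NCM chips for CM and mural markers. They lie below them for fibroblast, macrophage, granulocyte, endocardial, T cell, B cell and NK cell markers. The endothelial sums of 1206 to 2928 CPM overlap, as do those of the remaining lists.

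Across 16424 genes tested, 1866 were higher in CM (11.4% of those tested) and 1396 were lower (8.5%), or 3262 in either direction (19.9%), with a median log2 change of -0.08 over all genes. Among called genes the median log2 change was 2.57 for those higher and -2.49 for those lower. Small changes seldom pass this test, so large medians follow in part from the calling. Of the genes called, 1609 higher and 1175 lower were protein coding. The lists described here held 608 genes that were tested, of which 227 were higher and 111 lower in CM. Scaling by total UMIs alone moved the median of all genes to -0.86 and the calls to 1039 higher and 3474 lower, so changes are given relative to the TMM scale. Without CM replicate 3, 669 genes were lower. The CM chips did not overlap the NCM chips in 3052 genes that lay above (18.6%) and 3095 that lay below (18.8%), which is the background for statements on overlap.

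**Figure D2:**
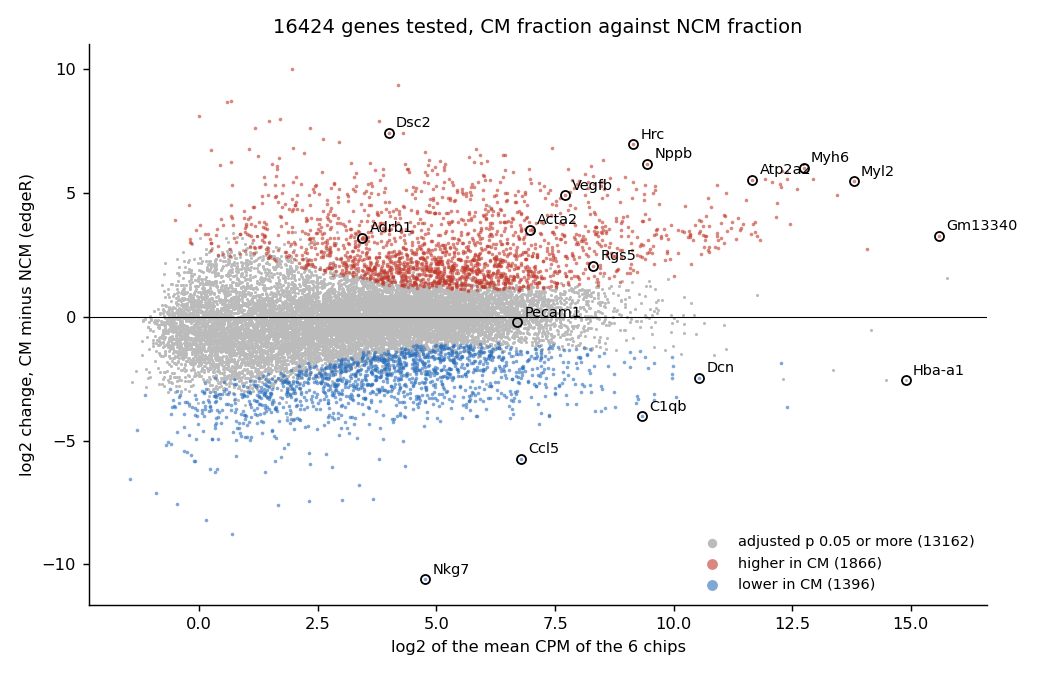
log2 change of CM over NCM against the log2 of the mean CPM of the 6 chips for the 16424 genes tested, with genes higher in CM in red (1866), lower in blue (1396) and all others in grey. Circled genes are named in the text; Myh6 and Myl2 lie high on the right, C1qb and Dcn low, and Pecam1 near 0.

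Sarcomere genes were higher in CM without exception among the members tested. All 8 thick filament and myosin-binding genes (median log2 change 5.45), all 9 thin filament genes (4.91) and all 14 Z-disc and titin-associated genes (5.08) were called higher, against 11.4% of all genes tested. Myh6, the alpha myosin heavy chain of the adult mouse ventricle (ENSMUSG00000040752, chromosome 14, 54941921 to 54966927, minus strand, of GRCm38), had 7283, 23841 and 9214 CPM in the CM chips and 239, 187 and 202 CPM in the NCM chips (log2 change 6.01, SE 0.81, adjusted p = 0.000197). CM replicate 3 was the highest chip, and the lowest CM chip was far above the highest NCM chip. Myl2, the ventricular regulatory light chain, had 10947, 34129 and 38364 CPM in the CM chips and 458, 297 and 1144 CPM in the NCM chips (log2 change 5.46, SE 0.95, adjusted p = 0.00113), and its NCM level was highest in replicate 6. Ttn, the giant spring that spans the sarcomere, had 6725, 15746 and 9287 CPM in the CM chips and 180.1, 157 and 214 CPM in the NCM chips (log2 change 5.85, SE 0.73, adjusted p = 0.000126). Tnnt2 and Tnni3, the troponin subunits that tie the thin filament to calcium, changed by 5.56 (SE 0.82) and 5.14 (SE 0.76). The Z-disc gene Myot, which encodes the actin cross-linker myotilin, had 331 UMIs over the CM chips and 3 over the NCM chips. Per non-mitochondrial UMI without TMM factors, that was a ratio of 97.6 with a 95% counting interval of 33.1 to 475.5. Flnc, an actin-binding filamin, had the smallest change of the Z-disc list, 2.42 (SE 0.42). Acta1, the skeletal alpha-actin, was the single thin filament gene whose groups overlapped, at 45.1, 30.04 and 1052 CPM in the CM chips and 2.95, 2.57 and 35.9 CPM in the NCM chips (log2 change 4.78, SE 1.33, adjusted p = 0.0206). Its call was lost without replicate 2, 4 or 5 (log2 change 4.32, 4.29 and 1.497).

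Among genes of calcium release and re-uptake, 11 of 12 members were higher in CM and 1 was lower (median log2 change 5.16). Atp2a2, the SERCA2 pump that returns calcium to the reticulum (ENSMUSG00000029467, chromosome 5, 122453513 to 122502225, minus strand), had 5573, 7455 and 5994 CPM in the CM chips and 122, 121 and 172 CPM in the NCM chips (log2 change 5.52, SE 0.64, adjusted p = 7.94e-05). The CM chips lay within a narrow range for this gene, unlike Myh6. Hrc, a calcium buffer of the reticulum, changed most of this list (log2 change 6.96, SE 0.68, adjusted p = 3.09e-05), at 623, 1571 and 1174 CPM in the CM chips and 4.49, 7.31 and 15.5 CPM in the NCM chips. Ryr2, the release channel, had 514, 1027 and 319 CPM in the CM chips and 10.3, 13.02 and 21.7 CPM in the NCM chips (log2 change 5.37, SE 0.59, adjusted p = 5.65e-05). Pln, the phospholamban that restrains the pump, and Casq2, the calcium store protein calsequestrin, changed by 5.32 (SE 0.68) and 5.45 (SE 0.66). The member called against the list was Fkbp1b, a ryanodine receptor-binding immunophilin, at 1.06, 0.554 and 0.707 CPM in the CM chips and 3.97, 6.14 and 4.17 CPM in the NCM chips (log2 change -2.62, SE 0.76, adjusted p = 0.0256). It is rare in both fractions, and the call was lost without replicate 3, 4 or 5 (log2 change -2.38, -2.41 and -2.55).

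Of 13 cardiac ion channel genes 11 were tested, and 8 were higher in CM with none lower. Kcnip2, the subunit that shapes the transient outward potassium current, had 42.6, 62.2 and 59.1 CPM in the CM chips and 1.84, 0.467 and 0.794 CPM in the NCM chips (log2 change 5.702, SE 0.57, adjusted p = 3.53e-05). Kcnj3, a subunit of the channel opened by acetylcholine, changed by 6.13 (SE 0.87). At the intercalated discs, which join cardiomyocytes end to end, 9 of 11 genes were higher and none lower. Dsc2, the desmosomal cadherin desmocollin 2, had 258, 840 and 141 UMIs in the CM chips and 4, 5 and 2 in the NCM chips (log2 change 7.43, SE 0.59, adjusted p = 1.97e-05). Dsp, the desmoplakin that anchors desmosomes to desmin, had 351, 833 and 465 CPM in the CM chips and 12.1, 9.78 and 8.14 CPM in the NCM chips (log2 change 5.78, SE 0.53, adjusted p = 2.34e-05). Gja1, the connexin 43 of the gap junctions, had the smallest change of those called, at 288, 287 and 128 CPM in the CM chips and 47.4, 28.04 and 57.4 CPM in the NCM chips (log2 change 2.41, SE 0.45, adjusted p = 0.00185).

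Of 15 cardiac transcription factors, 11 were higher in CM and none lower (median log2 change 1.997). Ppargc1a, the coactivator of mitochondrial biogenesis, had 53.9, 251 and 52.8 CPM in the CM chips and 1.32, 1.84 and 0.596 CPM in the NCM chips (log2 change 6.51, SE 0.73, adjusted p = 6.69e-05), with CM replicate 3 well above the other 2. Nkx2-5, the homeobox factor of the cardiac lineage, had 28.3, 70.1 and 88.1 CPM in the CM chips and 1.71, 1.14 and 1.99 CPM in the NCM chips (log2 change 5.29, SE 0.54, adjusted p = 3.89e-05). Irx4, a factor of the ventricle, and Tbx5, a T-box factor, changed by 5.26 (SE 0.58) and 3.76 (SE 0.65). Gata4, which other heart cells also express, had 29.2, 49.4 and 37.7 CPM in the CM chips and 19.2, 6.01 and 3.77 CPM in the NCM chips (log2 change 1.997, SE 0.55, adjusted p = 0.0205), and its call was lost without replicate 3, 4 or 6 (log2 change 1.78, 1.71 and 1.61). Prox1, a homeobox factor shared with lymphatic endothelium, changed by 3.99 (SE 0.51).

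The respiratory chain was higher in CM almost throughout. All 37 subunits of complex I (median log2 change 2.900), all 4 of complex II (2.998), all 9 of complex III (3.47), 11 of 13 of complex IV (3.11) and all 14 ATP synthase subunits tested of 15 (3.38) were called higher, and none lower. Without 1 chip or another the complex I count ran from 33 to 37. These are subunits encoded in the nucleus, since mitochondrial genes were left out of the test. Within complex IV the heart and skeletal muscle isoforms changed most. Cox7a1 had 4001, 14917 and 3958 CPM in the CM chips and 274, 122 and 86.1 CPM in the NCM chips (log2 change 5.57, SE 0.84, adjusted p = 0.000434), Cox6a2 changed by 5.36 (SE 0.79) and Cox8b by 5.54 (SE 0.76). The 2 members not called, Cox6a1 and Cox8a, are the isoforms of other tissues, with log2 changes of 0.18 (SE 0.39) and 0.89 (SE 0.46). Cox7a2, the other form paired with Cox7a1, went against these and was called higher (log2 change 3.08, SE 0.55, adjusted p = 0.00141). Atp5b, the catalytic beta subunit of ATP synthase, had 2585, 5285 and 4179 CPM in the CM chips and 258, 155 and 278 CPM in the NCM chips (log2 change 4.12, SE 0.595, adjusted p = 0.000325). Under total-UMI scaling 29 of the 37 complex I genes were still called higher.

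All 16 genes of the tricarboxylic acid (TCA) cycle were higher (median log2 change 3.37), as were 18 of 20 tested for fatty acid oxidation (3.11) and 12 of 19 for glycolysis (1.93), with none lower. Cs, the citrate synthase that opens the TCA cycle, had 479, 749.7 and 697 CPM in the CM chips and 48.4, 30.6 and 51.2 CPM in the NCM chips (log2 change 3.89, SE 0.46, adjusted p = 9.46e-05). Fabp3, the fatty acid carrier of heart muscle, had 1419, 3247 and 2299 CPM in the CM chips and 191, 62.1 and 61.3 CPM in the NCM chips (log2 change 4.47, SE 0.65, adjusted p = 0.000351). Cd36, the fatty acid transporter that endothelial cells also carry, was not called, at 1014, 981 and 602 CPM in the CM chips and 492, 496 and 449 CPM in the NCM chips (log2 change 0.85, SE 0.43, adjusted p = 0.187), although its CM chips lay above its NCM chips. Cpt1b, the muscle carnitine palmitoyltransferase, had 3 UMIs over the CM chips and 4 over the NCM chips, too few to test. Why so few UMIs were counted was not tested. Glycolysis genes called higher included Pfkm, the muscle phosphofructokinase (log2 change 5.196, SE 0.58, adjusted p = 6.10e-05), and Slc2a4, the insulin-responsive GLUT4 glucose transporter. Slc2a4 had 111, 108 and 95.7 CPM in the CM chips and 2.09, 1.44 and 4.27 CPM in the NCM chips (log2 change 5.37, SE 0.502, adjusted p = 2.34e-05). Mb, the oxygen store myoglobin, had 7619.8, 12737 and 8569.8 CPM in the CM chips and 368, 123 and 267 CPM in the NCM chips (log2 change 5.25, SE 0.73, adjusted p = 0.000258). Of the 8 genes of energy buffering and oxygen storage 7 were higher and 1, Ckb, the brain-type creatine kinase, was lower.

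**Figure D3:**
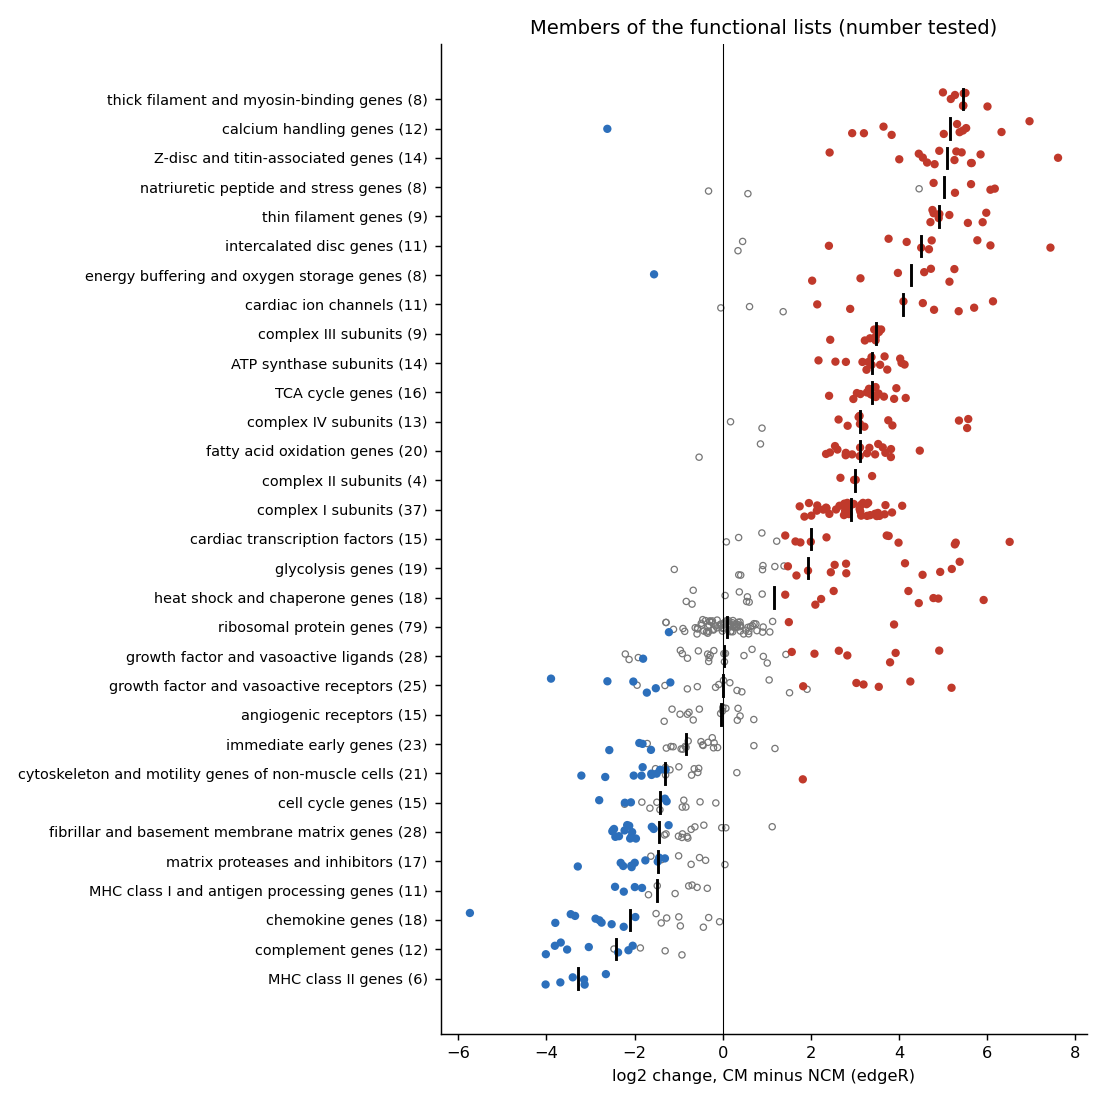
log2 change of CM over NCM for each tested member of the functional lists, ordered by the list median (black bar). Filled points are genes called higher (red) or lower (blue) and open points are genes not called; the lists run from the thick filament (median 5.45) to MHC class II (median -3.28).

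Pairs of related genes, 1 the form of striated muscle and 1 the form of other cells, were compared within a chip, where the ratio does not depend on scaling between chips. In 24 of 26 pairs the ratio of muscle to other UMIs was higher in every CM chip than in every NCM chip (exact permutation p = 0.1 for each, which is the smallest the design allows, and adjusted p = 0.108 over the 26 pairs). The muscle member was called higher in 25 pairs. The other member was not called in 17 of these, higher in 6 and lower in 2. Ckm, the muscle creatine kinase, made up 95.6%, 98.0% and 97.4% of the UMIs of Ckm and Ckb together in the CM chips and 33.7%, 20.0% and 36.0% in the NCM chips. Ckm changed by 4.72 (SE 0.67). Ckb had 29.3, 35.6 and 39.1 CPM in the CM chips and 81.1, 73.98 and 152 CPM in the NCM chips (log2 change -1.56, SE 0.397, adjusted p = 0.0128). The Ckb call was lost without replicate 6 (log2 change -1.16).

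Myl6, the light chain of non-muscle myosin, was the other member called lower, at 231, 118 and 106 CPM in the CM chips and 229, 424 and 633 CPM in the NCM chips (log2 change -1.501, SE 0.48, adjusted p = 0.0424). Its groups overlapped, and the call was lost without replicate 3, 4, 5 or 6 (log2 change -1.34, -1.52, -1.27 and -1.097). Myl3, the ventricular essential light chain, was 95.05%, 99.2% and 98.4% of Myl3 and Myl6 in the CM chips and 54.6%, 23.3% and 21.9% in the NCM chips. Actc1, cardiac alpha-actin, was 89.8%, 95.6% and 94.8% of Actc1 and Actb in CM and 11.1%, 7.65% and 12.1% in NCM. Eef1a2, the elongation factor of muscle and neurons, was 33.5%, 34.6% and 28.7% of Eef1a2 and Eef1a1 in CM and 0.602%, 0.629% and 2.10% in NCM (log2 change 5.13, SE 0.48, adjusted p = 2.34e-05). Rpl3l, the ribosomal protein of striated muscle, was 75.4%, 64.6% and 56.6% of Rpl3l and Rpl3 in CM and 11.1%, 2.90% and 4.83% in NCM (log2 change 3.89, SE 0.63, adjusted p = 0.0007104). Hexokinases did not split this way. Hk2 was 82.5%, 83.0% and 88.7% of Hk2 and Hk1 in CM and 67.6%, 82.0% and 85.5% in NCM, and both genes were higher in CM (log2 change 2.54 and 1.93), the Hk1 call being lost without replicate 3 (log2 change 1.45).

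**Figure D4:**
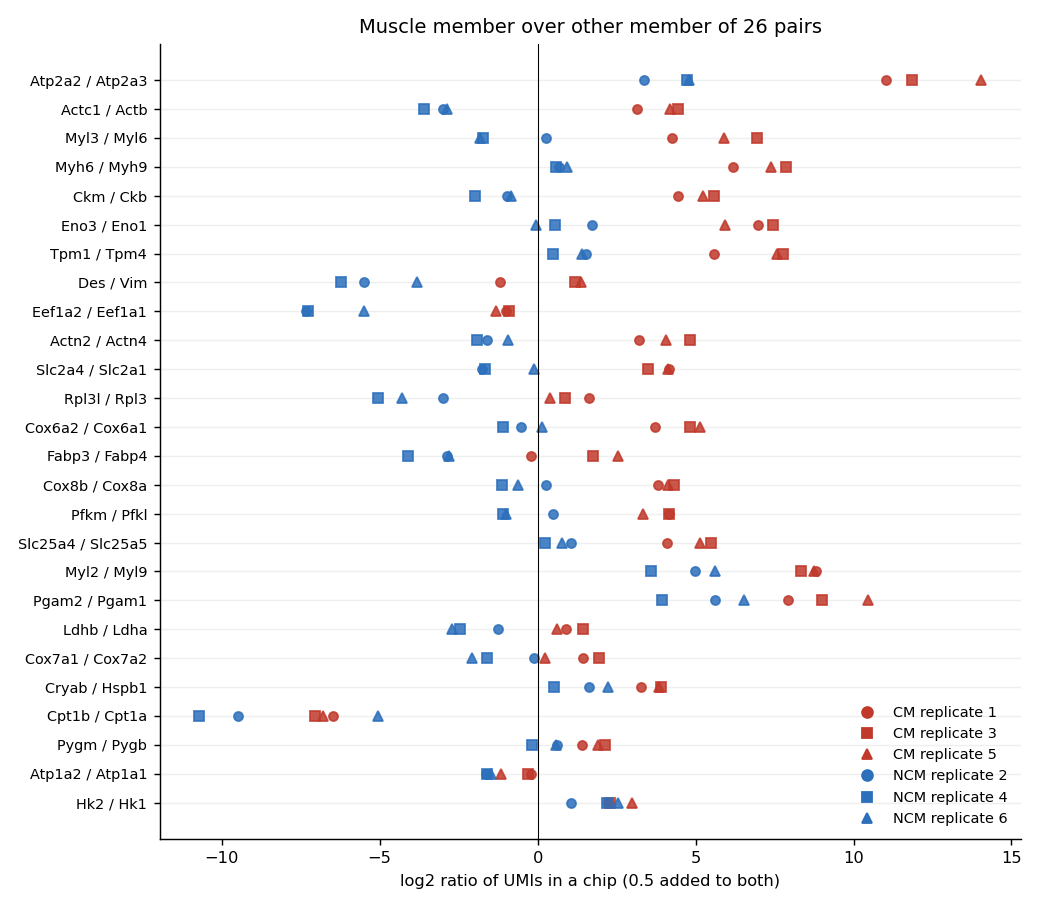
log2 ratio of the UMIs of the muscle member to those of the other member of 26 pairs in each of the 6 chips, with 0.5 UMIs added to both. CM chips (red) lie to the right of all NCM chips (blue) in 24 pairs; Hk2/Hk1 and Cpt1b/Cpt1a overlap.

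Natriuretic peptide and stress genes were higher in CM in 5 of 8 cases (median log2 change 5.03). Nppb, the brain natriuretic peptide, had 217, 573 and 3342 CPM in the CM chips and 1.32, 3.81 and 52.8 CPM in the NCM chips (log2 change 6.17, SE 1.35, adjusted p = 0.00519). CM replicate 5 was the highest CM chip by far and NCM replicate 6 the highest NCM chip. Nppb was still called without either, with log2 changes of 4.43 without replicate 5 and 9.09 without replicate 6. Nppa, the atrial natriuretic peptide, had 4.05, 12.8 and 379.6 CPM in the CM chips and 0.128, 0.234 and 18.4 CPM in the NCM chips and was not called (log2 change 4.45, SE 1.67, adjusted p = 0.0753). Its NCM replicate 6 lay above CM replicates 1 and 3, and the gene was called higher without replicate 1 (log2 change 5.04) or 6 (9.46). Ankrd1, a strain-responsive titin partner, had 265, 803 and 1897 CPM in the CM chips and 20.3, 7.58 and 32.1 CPM in the NCM chips (log2 change 5.63, SE 0.79, adjusted p = 0.000275). Myh7, the beta myosin heavy chain of the fetal ventricle, had 418, 994 and 670.3 CPM in the CM chips and 14.8, 15.7 and 23.6 CPM in the NCM chips (log2 change 5.27, SE 0.53, adjusted p = 3.53e-05). Of 4 atrial CM markers tested 2 were higher. Myl7, the atrial regulatory light chain, had 14.7, 31.6 and 117 CPM in the CM chips and 1.795, 9.55 and 13.5 CPM in the NCM chips (log2 change 2.72, SE 0.76, adjusted p = 0.0216). Sln, the sarcolipin that restrains the atrial calcium pump, had 12.7, 11.8 and 113 CPM in the CM chips and 1.71, 0.0668 and 6.06 CPM in the NCM chips (log2 change 4.198, SE 1.14, adjusted p = 0.0179). CM replicate 5 was again the highest chip for both. Both calls were lost without replicate 5 (log2 change 1.55 and 2.31) and without replicate 2 (2.25 and 3.99), and that of Myl7 without replicate 4 (2.84).

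Genes of fibroblasts and of the extracellular matrix were higher in the NCM fraction. All 8 fibroblast markers, 15 of 28 genes of the fibrillar and basement membrane matrix (median log2 change -1.45, against 8.5% of all genes called lower) and 10 of 17 matrix proteases and inhibitors (-1.48) were lower in CM, and none was called higher. Lamb2, a basement membrane laminin chain, had every CM chip above every NCM chip, at 132, 140.2 and 115 CPM in the CM chips and 92.9, 42.7 and 42.3 CPM in the NCM chips, and was not called (log2 change 1.12, SE 0.41, adjusted p = 0.0668), but was called higher without replicate 2 (log2 change 1.59). Dcn, the small proteoglycan decorin (ENSMUSG00000019929, chromosome 10, 97479609 to 97518143, plus strand), had 827, 254 and 289.8 CPM in the CM chips and 2398, 3286 and 1900.2 CPM in the NCM chips (log2 change -2.47, SE 0.59, adjusted p = 0.00874). CM replicate 1 held more of it than the other CM chips and remained below every NCM chip. Col1a1, the alpha 1 chain of type I collagen, had 85.3, 47.9 and 63.8 CPM in the CM chips and 305, 286 and 267 CPM in the NCM chips (log2 change -2.12, SE 0.39, adjusted p = 0.001701). Gsn, an actin-severing protein abundant in fibroblasts, had 449.9, 224 and 258 CPM in the CM chips and 1904, 1621 and 1581 CPM in the NCM chips (log2 change -2.45, SE 0.49, adjusted p = 0.00275). Among proteases Mmp2, which cleaves denatured collagen, changed by -2.07 (SE 0.44) and Adamts5, an aggrecanase, by -1.998 (SE 0.39). Without CM replicate 3 the lower calls fell to 4 of 8 fibroblast markers and 5 of 17 proteases and inhibitors, and without replicate 2 or 5 to 5 of 8 fibroblast markers.

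Macrophage genes were lower in CM across the list, 8 of 8 with each single chip left out as well (median log2 change -3.005). C1qb, a chain of complement C1q that resident macrophages make (ENSMUSG00000036905, chromosome 4, 136880129 to 136886187, minus strand), had 116, 68.5 and 41.7 CPM in the CM chips and 1249, 1319 and 1096 CPM in the NCM chips (log2 change -4.01, SE 0.53, adjusted p = 0.000172). The 3 NCM chips lay close together. Csf1r, the receptor that keeps macrophages alive, had 52.9, 32.9 and 16.7 CPM in the CM chips and 255, 162 and 215 CPM in the NCM chips (log2 change -2.62, SE 0.46, adjusted p = 0.00126). Mrc1, the mannose receptor, and Cd68, a lysosomal glycoprotein, changed by -2.22 (SE 0.43) and -3.39 (SE 0.54).

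All 6 tested MHC class II genes were lower in CM (median log2 change -3.28), 8 of 12 complement genes (-2.42), 10 of 18 chemokines (-2.12) and 4 of 11 MHC class I and antigen processing genes (-1.49), with none higher. H2-Ab1, a beta chain of class II, had 104, 31.6 and 26.4 CPM in the CM chips and 873, 771 and 445 CPM in the NCM chips (log2 change -3.69, SE 0.596, adjusted p = 0.0007004). Ccl5, a chemokine of T and NK cells, changed most of its list, at 2.02, 7.11 and 2.59 CPM in the CM chips and 337, 124 and 189 CPM in the NCM chips (log2 change -5.74, SE 0.62, adjusted p = 5.22e-05). Ccl6, a macrophage chemokine, had 77.2, 29.3 and 23.6 CPM in the CM chips and 484, 637 and 695 CPM in the NCM chips (log2 change -3.800, SE 0.54, adjusted p = 0.000281). Class I calls were 2 without CM replicate 3 and 7 without CM replicate 1.

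Of 8 T cell markers 5 were lower in CM, and of 8 B cell markers 4. Cd3d, a chain of the T cell receptor complex, had 2.29, 0.369 and 0.942 CPM in the CM chips and 59.9, 13.2 and 41.1 CPM in the NCM chips (log2 change -4.998, SE 0.75, adjusted p = 0.000404), with NCM replicate 4 the lowest NCM chip. Ighm, the heavy chain of IgM, had 11.5, 1.89 and 5.18 CPM in the CM chips and 67.1, 27.5 and 65.7 CPM in the NCM chips (log2 change -3.11, SE 0.61, adjusted p = 0.00243). All 8 granulocyte markers were lower, 3 when replicate 3 or replicate 6 was left out. S100a8, a calcium-binding protein of neutrophils, had 81.3, 99.03 and 19.1 CPM in the CM chips and 180.2, 923 and 541 CPM in the NCM chips (log2 change -3.04, SE 0.67, adjusted p = 0.00542). B cell calls were 1 without replicate 2 or 3, 2 without replicate 5 or 6 and 6 without replicate 1. Of 4 NK cell markers tested 3 were lower. Nkg7, a granule protein of cytotoxic cells, had 1 UMI in the CM chips and 1523, 807 and 714 in the NCM chips. Per non-mitochondrial UMI without TMM factors, its ratio of NCM to CM was 3442 with a counting interval of 617 to 136000. Ncr1, the NK receptor NKp46, had 0 UMIs in the CM chips and 91 in the NCM chips. On the same scale Ncr1 was at least 34.3-fold lower in CM, taking 3 UMIs over the fraction as the limit that a count of 0 allows.

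Of 6 red cell markers 2 were called lower in CM, and the CM chips of those 2 lay below every NCM chip, while the 4 globin genes overlapped in CPM. The erythroid markers held 3.79%, 0.455% and 1.10% of the non-mitochondrial UMIs of the CM chips and 4.03%, 13.8% and 24.6% of those of the NCM chips. Hba-a1, an alpha globin that shares most of its sequence with Hba-a2, had 15939.6, 2615 and 7736 CPM in the CM chips and 9712, 40704 and 105401 CPM in the NCM chips (log2 change -2.57, SE 1.04, adjusted p = 0.0972), and CM replicate 1 lay above NCM replicate 2. By wells, an Hba-a1 UMI was found in 93.45%, 97.75% and 86.77% of those of the CM chips and in 99.05%, 100% and 100% of those of the NCM chips. The CM shares lay below every NCM share, also with wells thinned to 1000 or 2000 UMIs. The red cell genes called lower were Slc4a1, the band 3 anion exchanger (log2 change -3.299, SE 0.59, adjusted p = 0.00137), and Alas2, the first enzyme of heme synthesis in red cells (log2 change -2.93, SE 0.73, adjusted p = 0.0108), the Alas2 call being lost without replicate 3 or 6 (log2 change -2.63 and -2.44). Of 6 markers 1 was called lower without replicate 3 or 6, and all 6 were without CM replicate 1 and under total-UMI scaling.

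Endothelial genes were measured in both fractions. None of the 8 endothelial markers (median log2 change -0.08) and none of 15 angiogenic receptors (-0.05) was called. Pecam1, the junctional CD31, had 135, 70.6 and 81.3 CPM in the CM chips and 141, 108 and 87.1 CPM in the NCM chips (log2 change -0.23, SE 0.39, adjusted p = 0.739). Cdh5, the cadherin of endothelial junctions, had 364, 234 and 188 CPM in the CM chips and 290.3, 159 and 212 CPM in the NCM chips (log2 change 0.25, SE 0.42, adjusted p = 0.731). The chips of the 2 fractions interleaved for both genes. A p above the threshold does not show that the fractions hold the same level. Without replicate 1, 1 endothelial marker was called lower, and without replicate 4, 1 angiogenic receptor. Under total-UMI scaling 2 endothelial markers and 6 angiogenic receptors were lower in CM. Of the 5 endocardial markers tested, Vwf and Cytl1 were lower (log2 change -1.21 and -2.04), and the count was 0 without replicate 3, 1 without replicate 2, 4, 5 or 6 and 5 without replicate 1.

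Mural genes, those of pericytes and smooth muscle, were in part higher in CM. Of 8 markers 3 were higher in CM and none lower (median log2 change 1.11). Rgs5, a G-protein regulator abundant in pericytes, had 529.8, 603 and 394 CPM in the CM chips and 132, 120.1 and 113 CPM in the NCM chips (log2 change 2.06, SE 0.404, adjusted p = 0.00241). Abcc9, the sulfonylurea receptor that pairs with potassium channels in pericytes and in cardiomyocytes, had 129, 216 and 86.5 CPM in the CM chips and 15.5, 19.6 and 16.98 CPM in the NCM chips (log2 change 3.05, SE 0.43, adjusted p = 0.000281). Acta2, smooth muscle alpha-actin, had 145, 424 and 120.2 CPM in the CM chips and 16.3, 20.5 and 23.5 CPM in the NCM chips (log2 change 3.52, SE 0.52, adjusted p = 0.000395). For all 3 genes every CM chip was above every NCM chip. An Acta2 UMI was found in 35.3%, 90.9% and 22.8% of CM wells and 5.93%, 7.59% and 5.23% of NCM wells. With wells thinned to 1000 UMIs these were 9.49%, 22.8% and 6.85% against 2.32%, 2.22% and 1.87%. The top 1% of wells held 17.96%, 6.98% and 15.69% of the mural marker UMIs of the CM chips and 26.18%, 36.27% and 42.99% in the NCM chips. Which cells carried this RNA was not tested. Pdgfrb, the receptor that defines pericytes, was not called, at 58.6, 49.5 and 73.3 CPM in the CM chips and 23.6, 28.01 and 83.00 CPM in the NCM chips (log2 change 0.43, SE 0.47, adjusted p = 0.576). Tagln, a smooth muscle actin-binding protein, was not called at 111 CPM in NCM replicate 6 and 4.40 to 14.9 CPM in every other chip, with a log2 change of -2.18 that was 0.01 without replicate 6 and called lower without replicate 2 (-2.72). No marker of mesothelium (6 tested), Schwann cells (4) or adipocytes (2) was called with all 6 chips. Without replicate 1, 4 mesothelial markers were called lower, without replicate 4, 1 Schwann cell marker, and without replicate 2, 1 mural marker.

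Growth factor ligands and receptors were called in both directions, where 11.4% of all genes tested were higher and 8.5% lower. Of 28 ligands 7 were higher in CM and 1 lower (median log2 change 0.03), and of 25 receptors 6 were higher and 6 lower (0.02). The lower receptor calls were 3 without replicate 2, 3 or 5. Vegfb, a vascular growth factor linked to fatty acid uptake, had 285, 399 and 526 CPM in the CM chips and 17.8, 14.4 and 7.94 CPM in the NCM chips (log2 change 4.91, SE 0.499, adjusted p = 3.60e-05). Its receptor Flt1 was at 215, 156 and 187 CPM in the CM chips and 154, 118 and 171 CPM in the NCM chips and was not called (log2 change 0.33). Vegfa, the main angiogenic factor, had 170.3, 230.3 and 90.5 CPM in the CM chips and 33.3, 50.1 and 32.8 CPM in the NCM chips (log2 change 2.08, SE 0.43, adjusted p = 0.003496). Its receptor Kdr was not called either (log2 change 0.35). In 2 pairs both partners were called, in opposite directions. Fgf1 had 85.7, 136 and 63.6 CPM in the CM chips and 6.24, 11.3 and 0.993 CPM in the NCM chips (log2 change 3.92, SE 0.66, adjusted p = 0.000963). The receptor Fgfr1 was lower in CM, at 12.9, 8.77 and 5.42 CPM in the CM chips and 43.3, 44.3 and 23.9 CPM in the NCM chips (log2 change -2.03, SE 0.45, adjusted p = 0.00601). Pdgfa changed by 2.83 (SE 0.45), and its receptor Pdgfra, a fibroblast marker, by -1.72 (SE 0.46), a call lost without replicate 2, 3 or 5 (log2 change -1.47, -1.58 and -1.44).

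Receptors called higher in CM included Ednra, the endothelin A receptor (log2 change 3.54, SE 0.66, adjusted p = 0.00177) and Agtr1a, the type 1 angiotensin receptor. Agtr1a had 24.1, 61.5 and 20.5 CPM in the CM chips and 2.22, 2.905 and 0.199 CPM in the NCM chips (log2 change 4.25, SE 0.73, adjusted p = 0.00107). Adrb1, the main beta adrenergic receptor of cardiomyocytes, had 19.01, 30.6 and 8.95 CPM in the CM chips and 3.08, 1.64 and 1.69 CPM in the NCM chips (log2 change 3.19, SE 0.596, adjusted p = 0.00177). For each of these genes named with its chips, every CM chip lay above every NCM chip. Igf1, the insulin-like growth factor, was the ligand lower in CM (log2 change -1.81, SE 0.44, adjusted p = 0.00971), and its call was lost without replicate 3 (log2 change -1.51). Without replicate 6, 3 ligands were called lower.

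Over all genes tested 11.4% were higher and 8.5% lower in CM. Of 79 ribosomal protein genes 2 were higher and 1 lower (median log2 change 0.09), and under total-UMI scaling 1 was higher and 15 lower. The higher ones were Rpl3l and Rps2, a protein of the small subunit (log2 change 1.498, SE 0.397, adjusted p = 0.0158). The Rps2 call was lost without replicate 2, 3 or 4 (log2 change 1.36, 1.24 and 1.47), while the count of higher genes was 4 without replicate 1 and that of lower genes was 0 without replicate 1, 4 or 5 and 2 without replicate 6. Of 18 heat shock genes 9 were higher and none lower. The largest changes were those of small heat shock proteins of muscle, Hspb3 (log2 change 5.92, SE 0.88, adjusted p = 0.000396) and Hspb7 (log2 change 4.89, SE 0.45, adjusted p = 2.34e-05). Hspb6, of the same family, had 353, 727 and 1006 CPM in the CM chips and 37.8, 11.7 and 26.5 CPM in the NCM chips (log2 change 4.78, SE 0.599, adjusted p = 0.000128). Hspa5, the chaperone of the endoplasmic reticulum, was not called, at 753, 1249 and 737 CPM in the CM chips and 1021, 2337 and 1003 CPM in the NCM chips (log2 change -0.67, SE 0.51, adjusted p = 0.403). Of 23 immediate early genes 4 were lower and none higher (-0.83), and 2 were called without replicate 3 or 4. Under total-UMI scaling 13 were lower. Junb, a subunit of AP-1, had 138, 124 and 109 CPM in the CM chips and 361, 402 and 384 CPM in the NCM chips (log2 change -1.63, SE 0.38, adjusted p = 0.00772).

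Cytoskeleton and motility genes of non-muscle cells were lower in CM in 10 of 21 cases (-1.303), and Pfn1, the actin monomer-binding profilin, changed most (log2 change -3.21, SE 0.65, adjusted p = 0.00316). Myl9, a smooth muscle light chain, was the member called against them, at 24.6, 107 and 89.5 CPM in the CM chips and 14.4, 24.8 and 23.4 CPM in the NCM chips (log2 change 1.82, SE 0.501, adjusted p = 0.0199), and its call was lost without replicate 2 or 3 (log2 change 1.59 and 1.45). Without replicate 3 the lower calls were 4, and without replicate 5 they were 6. Under total-UMI scaling 19 of the 21 were lower and none was higher. Cell cycle genes were lower in 5 of 15 cases, against 8.5% of all genes tested. But none was called without replicate 2, 3 or 6, 2 were without replicate 5 and 8 without replicate 1.

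Outside these lists, the 10 genes with the smallest p-values among those called and not overlapping between the fractions are named for each side. On the CM side they included the following. Asb11, an ankyrin repeat protein with a SOCS box (ENSMUSG00000031382, chromosome X, 164436994 to 164459170, plus strand), had 93.1, 123 and 155 CPM in the CM chips and 2.48, 1.803 and 2.78 CPM in the NCM chips (log2 change 5.72, SE 0.46, adjusted p = 1.97e-05). Art1, an ADP-ribosyltransferase (ENSMUSG00000030996, chromosome 7, 102101743 to 102113933, plus strand), had 44.5, 62.6 and 52.5 CPM in the CM chips and 0.855, 0.801 and 1.19 CPM in the NCM chips (log2 change 5.83, SE 0.47, adjusted p = 1.97e-05). Corin, the protease that activates natriuretic peptides (ENSMUSG00000005220, chromosome 5, 72300025 to 72504473, minus strand), had 48.6, 75.5 and 53.01 CPM in the CM chips and 0.598, 1.302 and 0.993 CPM in the NCM chips (log2 change 5.92, SE 0.502, adjusted p = 2.34e-05). The CM chips of these 3 genes stayed within a narrow range. Cavin4, a caveola protein of muscle, had the largest change of the 10 (log2 change 6.53, SE 0.57, adjusted p = 2.34e-05). Tmem38a, the TRIC-A potassium channel of the sarcoplasmic reticulum (5.56), Kcnj5, the partner of Kcnj3 in the acetylcholine-opened channel (5.42), Grb14, an adaptor of the insulin receptor (4.97), Rcan2, a calcineurin inhibitor (5.44), and Slc47a1, an organic cation exporter (5.98), were also among the 10.

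On the NCM side the same rule gave 10 genes. Pld4, a lysosomal exonuclease of the phospholipase D family (ENSMUSG00000052160, chromosome 12, 112760655 to 112768990, plus strand), had 9.95, 5.35 and 6.36 CPM in the CM chips and 89.4, 88.7 and 96.6 CPM in the NCM chips (log2 change -3.66, SE 0.41, adjusted p = 6.57e-05). Rac2, the small GTPase of blood cells (ENSMUSG00000033220, chromosome 15, 78559167 to 78572783, minus strand), had 8.099, 4.66 and 7.54 CPM in the CM chips and 93.9, 76.3 and 154 CPM in the NCM chips (log2 change -4.01, SE 0.45, adjusted p = 6.69e-05). Cbr2, a carbonyl reductase (ENSMUSG00000025150, chromosome 11, 120729489 to 120732114, minus strand), had 21.4, 14.1 and 23.8 CPM in the CM chips and 294, 206 and 441 CPM in the NCM chips (log2 change -3.99, SE 0.46, adjusted p = 7.94e-05). The NCM chips of Pld4 lay within 88.7 to 96.6 CPM. The others were Ms4a6c (-3.42), Alox5ap, the activator of 5-lipoxygenase (-3.87), Cd14, a co-receptor for lipopolysaccharide (-3.73), Dpep1, a dipeptidase (-3.39), Hpgds, the hematopoietic prostaglandin D synthase (-3.84), Mcub, the dominant-negative subunit of the mitochondrial calcium uniporter (-4.12), and Tmem37 (-4.09).

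Promoter windows of 4 called genes are shown, from 250 bases before to 50 bases after the start site as RefSeq annotates it on GRCm38.p6. They were chosen after their values were seen, as genes that hold the letters searched for. Capitals mark the matches: TATAAA on the sense strand (the TATA box), CATTCC on either strand (the M-CAT element of TEAD factors), AGATAA on either strand (GATA factors) and GAGGAAGT on either strand (PU.1, the myeloid ETS factor). The Nppb window (chr4:147985650-147985949, plus strand) holds the TATA box with its first base 31 bases before the start, a GATA match at 84 and a reverse M-CAT match at 105. That of Tnnt2 (chr1:135836084-135836383, plus strand) holds M-CAT at 27 and reverse GATA at 166 bases before the start. Pld4, lower in CM as given with the genes outside the lists (chr12:112760405-112760704, plus strand) has the PU.1 letters from base 10 after the start and C1qc (chr4:136892865-136893164, minus strand) has them in reverse, 195 bases before it. C1qc, another chain of complement C1q, had 66.5, 35.5 and 39.1 CPM in the CM chips and 609, 710.2 and 662 CPM in the NCM chips (log2 change -3.81, SE 0.46, adjusted p = 9.96e-05).
Nppb: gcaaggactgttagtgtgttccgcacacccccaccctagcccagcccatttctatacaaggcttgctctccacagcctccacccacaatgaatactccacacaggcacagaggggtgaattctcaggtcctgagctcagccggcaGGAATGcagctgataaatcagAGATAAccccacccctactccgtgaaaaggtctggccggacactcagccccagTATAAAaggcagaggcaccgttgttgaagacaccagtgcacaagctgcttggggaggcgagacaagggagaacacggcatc
Tnnt2: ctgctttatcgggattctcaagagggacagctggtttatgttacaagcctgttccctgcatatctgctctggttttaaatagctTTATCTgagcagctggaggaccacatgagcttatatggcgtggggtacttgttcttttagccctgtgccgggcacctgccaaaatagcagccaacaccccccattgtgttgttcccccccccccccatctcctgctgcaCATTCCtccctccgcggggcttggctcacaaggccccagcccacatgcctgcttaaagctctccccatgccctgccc
Pld4: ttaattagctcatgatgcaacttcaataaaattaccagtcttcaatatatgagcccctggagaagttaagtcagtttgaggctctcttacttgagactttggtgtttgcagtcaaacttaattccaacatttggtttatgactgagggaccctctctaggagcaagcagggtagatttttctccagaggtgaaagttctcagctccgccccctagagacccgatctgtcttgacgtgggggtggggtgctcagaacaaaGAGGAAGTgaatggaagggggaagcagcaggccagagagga
C1qc: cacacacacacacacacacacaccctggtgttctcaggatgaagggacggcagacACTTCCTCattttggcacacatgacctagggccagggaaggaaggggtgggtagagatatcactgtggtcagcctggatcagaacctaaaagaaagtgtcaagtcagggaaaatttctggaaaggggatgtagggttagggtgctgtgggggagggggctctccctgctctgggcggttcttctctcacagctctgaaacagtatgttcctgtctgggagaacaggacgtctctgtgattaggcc

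Over all promoters of this length the PU.1 letters occurred in 3.28% of 27026. They were in 1.81% of the 1323 windows matched to genes higher in CM, in 6.16% of the 925 matched to genes lower in CM and in 3.19% of the 8620 of genes tested and not called. TATAAA was in 4.46% of the windows of higher genes and 8.22% of those of lower genes, against 8.88% of all promoters and 4.64% of the 10868 of genes tested. CATTCC was in 12.6% and 10.5%, against 14.6% of all promoters and 12% of those of genes tested. AGATAA was in 6.65% and 8.76%, against 11.4% of all promoters and 6.38% of those of genes tested. These are shares of letters in a window, given as a description.

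In single wells Myh6 was near universal in CM and partial in NCM. Myh6 had a UMI in 100%, 100% and 100% of CM wells and in 51.9%, 51.1% and 47.9% of NCM wells. Thinned to 1000 UMIs per well, mitochondrial ones left out, the shares were 98.5%, 100% and 98.9% against 21.3%, 17.6% and 23.9%. Thinning kept 1096, 711 and 701 CM wells and 1423, 1485 and 1015 NCM wells. The NCM wells, with a median of 5485, 7736 and 3816 non-mitochondrial UMIs against 6044, 41458 and 5281 in the CM wells, give the background for reading the CM shares, and the CM wells give it for genes of the NCM fraction. CM markers took a median of 4.36%, 7.74% and 7.47% of a CM well's non-mitochondrial UMIs and 0.171%, 0.0811% and 0.230% of an NCM well's. The top 1% of NCM wells held 33.7%, 34.7% and 16.4% of the CM marker UMIs of their chip.

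Dcn had a UMI in 21.8%, 9.85% and 14.6% of thinned CM wells and in 72.6%, 66.7% and 41.0% of thinned NCM wells, while unthinned the shares were 54.55%, 58.2% and 27.03% against 96.2%, 92.3% and 72%. C1qb was in 6.48%, 3.66% and 2.14% of thinned CM wells and in 55.5%, 46.6% and 37.2% of thinned NCM wells, and unthinned in 21.3%, 24.75% and 5.69% against 90.7%, 82.4% and 67.7%. Rgs5 was in 26.4%, 24.8% and 21.1% of thinned CM wells and 12.4%, 8.82% and 8.67% of thinned NCM wells, and unthinned in 57.8%, 86.8% and 48.5% against 31.5%, 25.5% and 18.3%. The groups of all 3 genes did not overlap. Of the 18 genes followed this way 16 did not overlap between the fractions, unthinned and at both thinned depths (1000 and 2000 UMIs). Pecam1 and Cdh5 overlapped. The 18 genes were picked and not drawn from all genes, and well shares were not computed over all genes. In chip CPM 18.6% of all genes tested lay above and 18.8% below without overlap. The exact permutation p of each of the 16 was 0.1, the smallest possible.

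**Figure D5:**
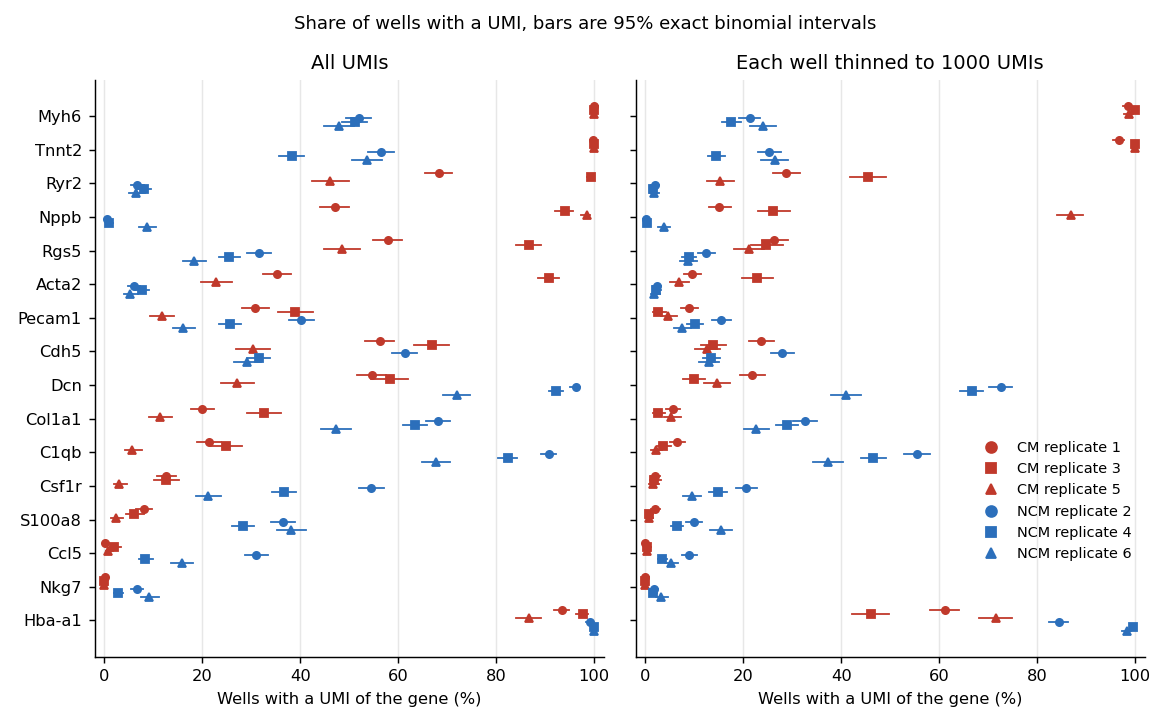
Share of kept wells with at least 1 UMI of each of 16 genes in the 6 chips (CM red, NCM blue), with all UMIs on the left and each well thinned to 1000 UMIs on the right; bars are 95% Clopper-Pearson intervals, which cover counting error only. Myh6 stays near 100% in CM wells after thinning and falls to 17.6% to 23.9% in NCM wells, and Pecam1 and Cdh5 overlap.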

How the data were processed

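The authors deposited, for each chip, a matrix of UMI counts per gene and well and a report of its wells. Per the submitters' processing notes reads were aligned to mm10 with STAR (2.5.2b) and assigned with featureCounts of Subread (1.4.6-p1). Of the columns, 32744 were Ensembl genes, 33 of them mitochondrial, and 32000 had a symbol in the GENCODE vM21 annotation of GRCm38. The 90 spike-in columns and the TDtomato reporter were left out of library sizes and tests, and so were mitochondrial genes. No column of another series was found.

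Wells typed as controls and wells with under 500 detected genes were left out, no doublet caller was run, and UMI counts were summed per chip, giving 5419137 to 36304187 non-mitochondrial UMIs a chip. Between 91 and 448 well barcodes were shared by pairs of chips, since barcodes mark positions printed on every chip. Sums of 3 CM and 3 NCM chips were compared with edgeR (4.0.16, in R 4.3.3; filterByExpr, TMM, quasi-likelihood F test, Benjamini-Hochberg threshold 0.05; common dispersion 0.259, 4 residual degrees of freedom). Every adjusted p of a gene comes from this fit. In counts simulated for this comparison over 15925 genes, 67, 67 and 66 of them were changed by 1, 2 and 4 on the log2 scale, up or down. The test recovered 1.49%, 40.3% and 98.5% of these, with 5 false calls, so small changes were often missed. Far more genes, 3262, were called in the data, so these rates may not carry over to the data. Quantities per chip and ratios of pairs were compared by two-sided exact permutation tests (scipy 1.17.1), over 9 quantities and 26 pairs. Intervals are 95% Clopper-Pearson or exact ratio intervals and cover counting error only. For shares of wells, each well was also thinned to 1000 or 2000 non-mitochondrial UMIs, leaving out shallower wells.

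The members of this comparison, the gene lists and the pairs were chosen with earlier results of these data known. Named genes are list or pair members, by preference abundant ones and those called against their list or pair. Besides them, in each direction, the 10 genes with the smallest p among called genes with no overlap of chips, in no list or pair and not of Gm, Rik or pseudogene names, were taken, 1 of which is not reported here. Promoters came from RefSeq (GRCm38.p6), which matched 10868 genes tested. Alternatives were other scalings, DESeq2 (1.42.0), filters, well selections, thinning, single chips left out, sums per animal and replicate blocks. The block by chip pair and the removal of pseudogenes were chosen after seeing the data. Chips 1 and 2, 3 and 4, and 5 and 6 share an experiment name in the well reports.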

Additional observations from a re-analysis of the deposited data

Results flagged for a closer look

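UMIs of the 8 CM markers were present in wells that the comparison did not use. The 5 negative control wells of each chip should hold no cell. They had 38, 239 and 29 such UMIs in CM replicates 1, 3 and 5. In NCM replicates 2, 4 and 6 they had 7, 12 and 7. Each of these chips was picked out because the count lay above 3, a cutoff for picking chips out and not a test. CM replicate 3, the deepest chip, had the most. The deepest negative control well held 465, 986 and 192 UMIs in the CM chips and 1329, 500 and 360 in the NCM chips.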

How the results depend on the processing

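The counts of genes higher and lower in CM (1866 and 1396) moved most with scaling: total UMIs alone gave 1039 and 3474, with 196 list members lower in place of 111. Leaving out single chips gave 1259 to 1987 higher and 669 to 1529 lower, 205 to 227 list members higher and 63 to 137 lower, and 25 to 25 muscle members of pairs higher; the lowest values came without CM replicate 3. Sums per animal, with chips 3 and 4 each left whole, gave 2054 higher and 1966 lower. A replicate block by animal on these sums gave 2242 higher and 2170 lower, and the replicate block by chip pair gave 2239 and 1841. Both fits by animal tested 13699 genes, against 16424 in the main fit and 16716 to 18074 without 1 chip, so the counts are of unlike sets. The block by animal took M1 and M2 as the same animals in both fractions, which is not stated. The deviations of paired chips correlated at 0.062, 0.249 and 0.201, and those of chips from different pairs at -0.196 to -0.0023. The deviations were taken from the mean of a fraction's chips. A positive value for a pair therefore pushes the values of unpaired chips down, so these are not independent of it. The main fit left the pairing of chips out. DESeq2 gave 2302 and 1971, and leaving out pseudogenes 1767 and 1366 of 14297 tested. The difference in wells used, CM minus NCM, was -229.3 a chip with at least 1000 genes per well in place of 500. Of 126 genes named with a test, 93 kept their direction and their side of the threshold in every alternative run. The log2 changes that turned sign were of genes not called: under total UMIs Cdh5 (-0.51), Cox6a1 (-0.63), Flt1 (-0.41), Kdr (-0.43) and Pdgfrb (-0.24), in wells thinned to 1000 UMIs Flt1 (-0.14) and Pdgfrb (-0.19), and without 1 chip Cdh5 (-0.028 to 0.49), Kdr (-0.10 to 0.76) and Tagln (-2.72 to 0.007). The cause of these shifts was not tested. Of 4 atrial CM markers, 4 were higher with the replicate block by chip pair, Nppa included, in place of 2. Some genes rest on few UMIs. Cpt1b had 3 UMIs in the CM chips and 4 in the NCM chips, and a chip's median NCM well held 5657.5 to 10177 UMIs.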

Other observations

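Of 42 small nuclear RNA genes tested, 16 were lower in CM (38.1%, against 8.5% of all genes) and none higher, with a median log2 change of -2.37. Of 30 genes of the miscellaneous RNA class 15 were lower and 1 higher (median -2.38), and all 3 constant genes of the T cell receptor tested were lower (median -3.99). Among 248 long intergenic RNA genes 22 were higher (8.87%, against 11.4% of all genes) and 27 lower (10.9%, against 8.5%). Among 1833 processed pseudogenes 158 were higher (8.62%) and 60 lower (3.27%), and both shares were under those of all genes.

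Of the unprocessed pseudogenes, 3 that lie side by side on chromosome 2, Gm13339 (22590024 to 22590533), Gm13340 (22588103 to 22589647) and Gm13341 (22587291 to 22587962), all on the minus strand, held 19.19%, 8.58% and 3.15% of the non-mitochondrial UMIs of CM replicates 1, 3 and 5 and 2.93%, 1.71% and 1.29% of those of NCM replicates 2, 4 and 6. All 3 were called higher in CM (log2 change 3.73, 3.27 and 2.73). Genes annotated as pseudogenes together held 27.66%, 17.53% and 12.93% against 11.51%, 10.5% and 9.32%. Counts of genes and of their copies share reads where the sequences are near identical, so these values are uncertain. The pseudogene UMIs are part of the non-mitochondrial totals behind the TDtomato levels, the marker shares of wells and the thinned wells.

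The well reports type wells M1 and M2. In CM replicate 1 the 549 M1 wells had a TDtomato UMI in 39.89% of cases and a median of 5.13% CM marker UMIs, and the 551 M2 wells had 26.86% and 3.19%. In CM replicate 5 mitochondrial genes held 44.98% of the UMIs of M1 wells and 57.41% of those of M2 wells, and in NCM replicate 6 they held 12.73% and 30.21%. Other values lay close together: a TDtomato UMI was found in 76.87% and 75.69% of the M1 and M2 wells of CM replicate 5 and in 17.87% and 17.16% of those of NCM replicate 2. No test was run on these values.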
